A study of Vitis vinifera with 24 samples.

Results

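Whole Sauvignon blanc berries (*Vitis vinifera*) sampled 35 days after mid-veraison (v + 35) in 2013 were compared between vines whose soil received nitrogen and vines that received none, 3 libraries against 3, which are 6 of the 24 libraries of the study. Soil N100 vines were given ammonium nitrate on the soil at bud break and again at flowering. Control vines had no fertilizer, and all vines stood in one commercial vineyard near Bordeaux. Berries were collected from blocks of vines, and nothing in the labels ties a library number in one treatment to the same number in the other. The seed is part of the whole berry, so each library mixes RNA of skin, flesh and seed. The members of the comparison are these 6 libraries, taken by their labels, and the genes are all those with a mean of at least 0.5 RPKM (reads scaled to gene length and library depth) over the 12 libraries of 2013, 17298 of the 25951 genes in the table. The other samplings were v + 28 of the same year and v + 35 of 2014, when both the clone and the rootstock had been replaced. They were set beside v + 35 of 2013, and v + 28 also entered the filter and the estimate of the spread between libraries.

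Nitrate that a vine takes up is reduced by nitrate reductase and then by nitrite reductase to ammonium, which glutamine synthetase and glutamate synthase build into amino acids, and asparagine synthase makes a nitrogen-rich transport form. After veraison the berry softens as pectin and xyloglucan are remodelled, loses chlorophyll and its photosystems, and fills its cells with osmotins, thaumatin-like proteins and chitinases. Seeds meanwhile lay down storage proteins, oil bodies coated by oleosins, and late embryogenesis abundant (LEA) proteins that protect the drying embryo.

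Reads counted in genes, in units of 1e+06 (M), were 29.56 to 63.88 M in the control libraries and 31.3 to 61.25 M in the soil N100 libraries, so the depths overlapped. The 10 most abundant genes of a library took 10.2 to 13.04% of its reads in the controls and 12.3 to 13.95% under soil N100. Pearson correlations of log2 values across genes were 0.991 to 0.994 within the controls, 0.985 to 0.991 within soil N100 and 0.98 to 0.992 between treatments, so no library stood apart by this measure. Values in triplets are in the order of replicates 1 to 3, in RPKM. Values given as log2 fold changes (LFC, soil N100 minus control) are on the scale of log2(RPKM + 0.5), which understates the change of low genes, and SE is the standard error of an LFC. A gene was called at a Benjamini-Hochberg adjusted p value of at most 0.05 in limma with an LFC of at least 0.6 in size. A weaker mark, an unadjusted p value of at most 0.05 with the same LFC, is named the unadjusted threshold and is not a call. Whether the 3 libraries of one treatment all lie above or all below those of the other is given as "without overlap". The replicates are separate blocks of vines in a single vineyard, so p values measure the spread between these samples.

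Across the transcriptome few genes passed limma at v + 35. A single gene, *VIT_10s0116g00560*, was called up-regulated and 0 were called down-regulated by limma, which is 0.00578% of the tested genes called. The study's own test, DESeq2 on counts, listed 347 genes with a description at this stage. That test was not repeated, and the reason for the difference was not tested. Leaving out soil N100 replicate 2 gave 14 calls, 10 up and 4 down, and leaving out control 2 or 3 or fertilized replicate 1 or 3 gave 0. At the unadjusted threshold 221 genes were higher (1.28%) and 251 lower (1.45%), 472 in all (2.73%), of which 168 have no description. limma-voom on the read numbers recovered from the RPKM values also called 1 gene, with 293 higher and 447 lower at the unadjusted threshold. Libraries did not overlap for 831 genes higher (4.8%) and 4131 genes lower (23.9%) under soil N100. This imbalance moved with scaling. The median LFC of all tested genes was -0.10 as deposited and -0.002 after median-ratio rescaling, and the rescaled libraries gave 342 genes higher (1.98%) against 142 lower (0.821%) at the unadjusted threshold and 2027 higher (11.7%) against 1794 lower (10.4%) without overlap. The rescaling factors were 0.993 to 1.035 for the controls and 0.923 to 0.952 for soil N100. LFCs below are as deposited and are best read against that shift of the median.

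**Figure D1:**
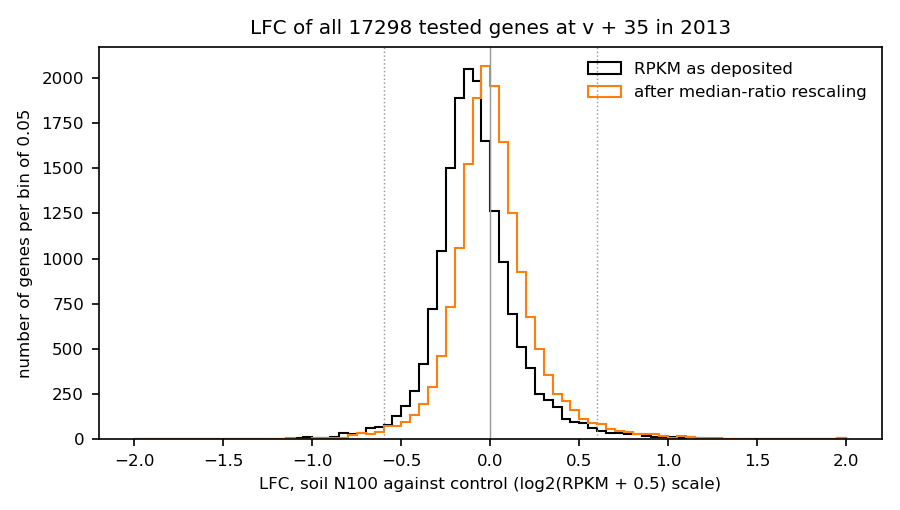
Number of genes (y axis) by LFC of soil N100 against control at v + 35 in 2013 (x axis, log2 scale, bins of 0.05) for the 17298 tested genes. The black outline, RPKM as deposited, is centred at -0.10 and the orange outline, after median-ratio rescaling, at -0.002, with 5% of genes below -0.41 and 5% above 0.33 as deposited. Dotted lines mark an LFC of 0.6 in either direction.

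The called gene, *VIT_10s0116g00560*, is described as a C3HC4-type RING finger protein, a family that includes many ubiquitin ligases. Its description also carries a polyphenol oxidase label, and which of these is right was not settled. The gene stood at 0.338, 0.221 and 0.196 RPKM in the controls and at 1.51, 1.47 and 1.62 RPKM under soil N100, which are 12 to 23 reads against 87 to 165 reads. All soil N100 libraries lay close together and well above every control. Its LFC was 1.44 (SE 0.15, adjusted p = 0.00896, limma), and 1.51 after median-ratio rescaling (adjusted p = 0.00658, limma). The adjusted p value was 0.0605 when the 6 libraries were fitted alone, and 0.077 to 0.0964 with any 1 of 4 libraries omitted, namely controls 2 and 3 and fertilized replicates 1 and 3. At v + 28, where 0.0694% of genes were called, its LFC was 1.19 (adjusted p = 0.0237, limma). In 2014 it fell under the filter on low values, with means of 0.125 RPKM in the controls and 0.187 RPKM under soil N100 and with overlapping libraries.

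Genes were grouped by function through 28 lists drawn from 648 described genes, of which 595 were tested. These descriptions exist only for genes that had been selected on the deposited libraries, so the lists are no independent evidence of a direction. The 313 tested genes selected at v + 35 itself had a median LFC of 0.58, and 145 were higher and 100 lower at the unadjusted threshold. The 282 described genes selected only at v + 28 or in 2014 had a median LFC of 0.22, with 182 above 0 and 100 below, and 29 higher and 30 lower at the unadjusted threshold. Of all tested genes, 29.6% had an LFC above 0 as deposited and 70.4% one below 0, and after rescaling these were 49.5% and 50.5%. No member of a list passed the adjusted threshold.

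**Figure D2:**
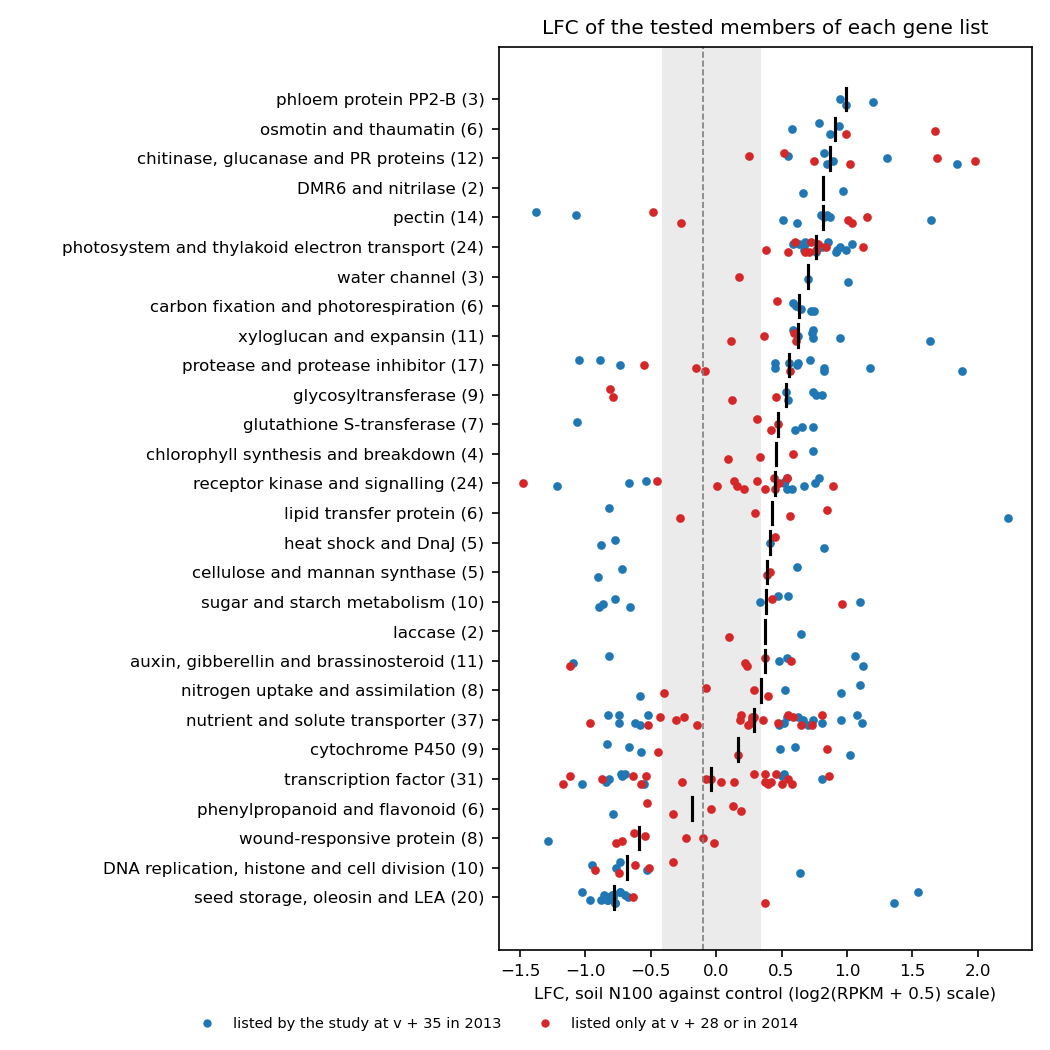
LFC at v + 35 in 2013 (x axis, log2 scale) of each tested member of 28 gene lists (rows, number of members in parentheses), blue where the gene was selected at v + 35 and red where only at v + 28 or in 2014. Black ticks are list medians, the dashed line is the median of all tested genes (-0.10) and grey spans their central 90% (-0.41 to 0.33). Phloem lectins, osmotins, chitinases and photosystem genes sit to the right, and seed, DNA replication and wound-responsive genes to the left.

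Genes of nitrogen uptake and assimilation were mostly higher under soil N100. Of the 8 tested, 5 had an LFC above 0, 5 were without overlap on the higher side and 2 on the lower, and the median LFC was 0.34. Of all tested genes, 4.8% were higher and 23.9% lower without overlap, so the lower count is near the background as deposited. After rescaling the counts stayed at 5 and 2, beside 11.7% and 10.4% of all tested genes. Nitrite reductase (*VviNiR*, *VIT_03s0063g00370*), which turns nitrite into ammonium in plastids, stood at 31.7, 26.1 and 28.4 RPKM in the controls and at 44.8, 36.6 and 43.4 RPKM under soil N100. Every soil N100 library exceeded every control, and the LFC of 0.52 (SE 0.13, adjusted p = 0.132, limma) did not pass. Asparagine synthase (*VIT_06s0004g06830*) stood at 1.46, 2.24 and 1.00 RPKM against 3.93, 3.38 and 4.14 RPKM. Its soil N100 libraries were alike and without overlap, with an LFC of 1.10 (SE 0.26, adjusted p = 0.132, limma). A nitrate transporter-like gene (*VIT_01s0026g01570*) was at 24.01, 21.4 and 17.03 RPKM in the controls and more scattered, at 40.2, 26.9 and 61.02 RPKM, under soil N100, again without overlap (LFC 0.96, SE 0.24, adjusted p = 0.132, limma). NADH-dependent glutamate synthase (*VIT_16s0098g00290*), the most abundant member, was 37.3 to 40.1 RPKM in the controls and 44.0 to 49.3 RPKM under soil N100. LBD38, in Arabidopsis a repressor of nitrate-responsive and anthocyanin genes, has 2 copies in the list, of which *VIT_07s0129g00330* had an LFC of 0.40 without overlap and *VIT_03s0091g00670* one of -0.08 with overlap. On the lower side were a proton-dependent oligopeptide transporter (*VIT_01s0011g03400*, LFC -0.59, 1.686 to 2.096 RPKM against 1.03 to 1.16 RPKM) and a proline oxidase, an enzyme of proline breakdown (*VIT_14s0083g00520*, LFC -0.40). Rescaling left these directions as they were except for *VIT_03s0091g00670*, whose LFC became 0.03.

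**Figure D3:**
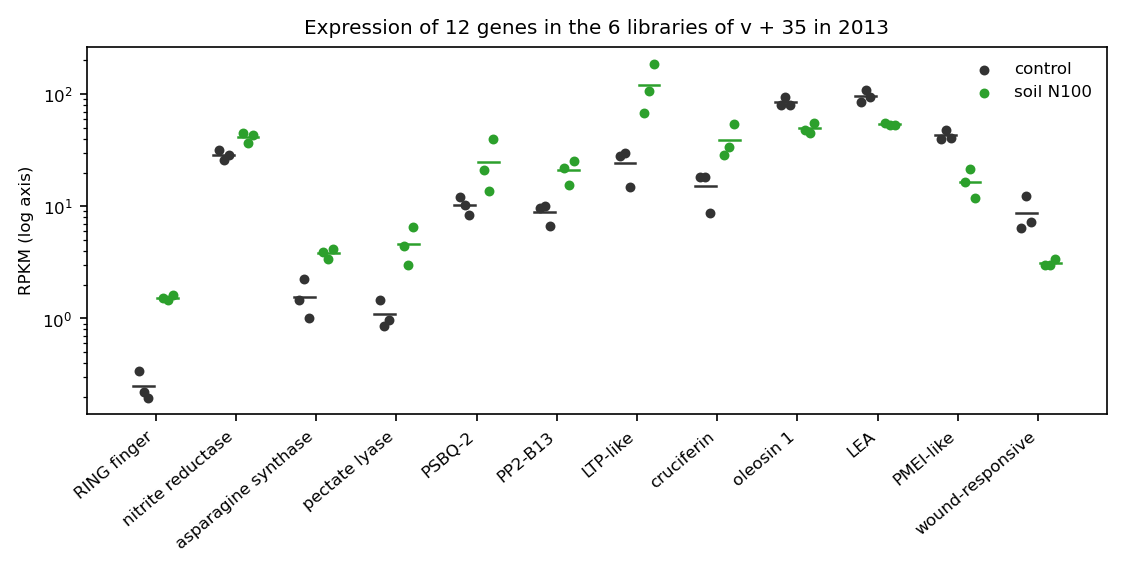
RPKM (y axis, log scale) of 12 genes in each of the 3 control (black) and 3 soil N100 (green) libraries of v + 35 in 2013, with horizontal bars at the mean of each treatment. The gene labelled RING finger (*VIT_10s0116g00560*) is the one called, at a mean of 0.252 RPKM in the controls and 1.53 RPKM under soil N100. None of the 12 genes has overlapping libraries.

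The listed photosystem genes were all higher. Each of the 24 members had an LFC above 0, from 0.38 to 1.12 with a median of 0.76. Of them, 20 reached the unadjusted threshold and 11 were without overlap. Among all tested genes, 1.28% were higher at the unadjusted threshold and 4.8% higher without overlap. After rescaling the list counts were 22 and 15, beside 1.98% and 11.7% of all tested genes. Selected at v + 35 itself were 14 members. Of the 10 members selected only at other samplings, 7 reached the unadjusted threshold and 2 were without overlap. The summed level of the list was 406 to 491 RPKM in the controls and 487, 726 and 1135 RPKM in the soil N100 libraries ordered by level. Soil N100 replicate 2 reached no higher than the highest control, and replicate 3 was far above the others. Without replicate 3 the list median was 0.41, and without replicate 2 it was 1.15. PSBQ-2 (*VIT_00s0904g00010*), a subunit of the oxygen-evolving complex, showed the pattern at 12.0, 10.2 and 8.45 RPKM in the controls and 21.3, 13.6 and 39.7 RPKM under soil N100 (LFC 1.12, SE 0.34, adjusted p = 0.157, limma). PSAO (*VIT_06s0080g00920*), a photosystem I subunit, was at 4.50, 2.76 and 3.25 RPKM against 7.93, 4.28 and 12.7 RPKM, where replicate 2 lay inside the control range (LFC 1.04, SE 0.31). The most abundant member, a chlorophyll-binding protein (*VIT_12s0057g00630*), was at 76.0, 58.4 and 56.9 RPKM against 101, 64.0 and 176 RPKM.

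Soil N100 replicate 2 was also the lowest of its treatment in the genes shown beside the photosystems. Protochlorophyllide reductase PORA (*VIT_19s0014g03160*), which makes chlorophyllide in the light, was at 14.2, 11.2 and 10.9 RPKM in the controls and 21.9, 14.4 and 27.1 RPKM under soil N100 (LFC 0.74, SE 0.19). It was the member without overlap among 4 genes of chlorophyll synthesis and breakdown, whose median LFC was 0.46, or 0.17 without soil N100 replicate 3 and 0.70 without replicate 2. Carbon fixation and photorespiration had 6 tested genes, all with an LFC between 0.46 and 0.75, of which 4 were without overlap. Among all tested genes, 4.8% were higher without overlap. Of the 6 genes, 5 had been selected at v + 35 itself. Rubisco activase (*VIT_13s0019g02050*) was low but tight, at 1.01, 0.733 and 0.688 RPKM against 1.93, 1.45 and 1.72 RPKM (LFC 0.75, SE 0.15, adjusted p = 0.111, limma). Catalase 2 (*VIT_00s0698g00010*), which removes the hydrogen peroxide of photorespiration, was at 96.6, 62.8 and 74.5 RPKM against 135, 109 and 139 RPKM. For both genes all soil N100 libraries were above all controls.

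**Figure D4:**
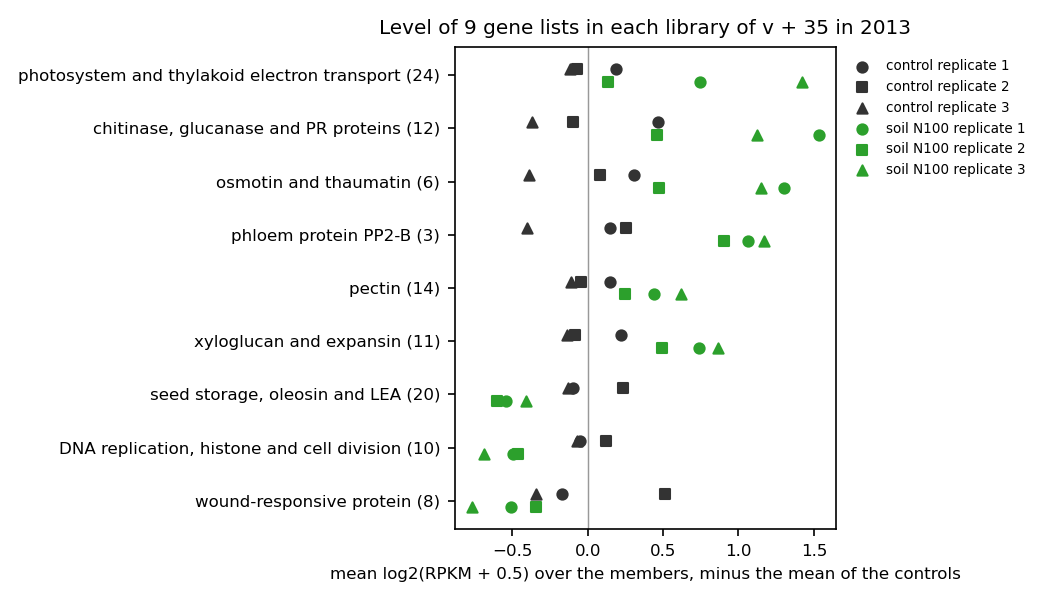
Level of 9 gene lists (rows) in each library of v + 35 in 2013, as the mean log2(RPKM + 0.5) over the members minus the mean of the controls (x axis). Each point is 1 library. For the photosystem list soil N100 replicates 1 to 3 sit at 0.75, 0.14 and 1.42, and the controls between -0.12 and 0.19.

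The listed genes for defence-related proteins of ripening flesh and skin were higher as well. All 6 tested osmotin and thaumatin genes and all 12 chitinase, glucanase and pathogenesis-related (PR) genes had an LFC above 0, with medians of 0.91 and 0.87. Without overlap were 4 of the 6 and 7 of the 12, beside 4.8% of all tested genes on the higher side (11.7% after rescaling). Selected at v + 35 itself were 4 of the 6 and 6 of the 12, all of them without overlap. Of the members selected only at other samplings, 0 of 2 and 1 of 6 were without overlap. The most abundant osmotin (*VIT_02s0025g04310*) was at 664, 541 and 400 RPKM in the controls and 1273, 718 and 1120 RPKM under soil N100 (LFC 0.94, SE 0.29). A chitinase (*VIT_05s0094g00350*) was the most abundant gene of the lists, at 4924, 4224 and 3920 RPKM against 6658, 5568 and 6473 RPKM (LFC 0.52, SE 0.15, adjusted p = 0.144, limma). Beta-1,3-glucanase BG1 (*VIT_08s0007g06040*) was at 888, 776 and 641 RPKM against 1626, 1027 and 1538 RPKM. In each of these genes control replicate 3 was the lowest library and soil N100 replicate 2 the lowest of its treatment. The widest scatter was in BG3 (*VIT_08s0007g06060*), at 26.9, 9.16 and 6.23 RPKM against 91.0, 24.8 and 46.7 RPKM, where the LFC of 1.98 (SE 0.73) came with overlapping libraries. A basic chitinase (*VIT_03s0038g03400*) was at 2.12, 6.49 and 2.60 RPKM against 10.6, 12.8 and 17.3 RPKM without overlap (LFC 1.84, SE 0.64, adjusted p = 0.179, limma). DMR6, an oxygenase that in Arabidopsis restrains immunity to downy mildew, has 2 tested copies, at LFC 0.97 (*VIT_16s0098g00860*, overlapping) and 0.66 (*VIT_13s0047g00210*, without overlap). Several of these genes carry neighbouring identifiers and the same description, and since only uniquely aligned reads were counted the level of a single copy is uncertain.

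Most genes that act on the cell wall were higher, with exceptions among the pectin and cellulose genes. All 11 genes of the xyloglucan and expansin list had an LFC above 0, with 5 without overlap and a median of 0.63. Expansin B2 (*VIT_15s0021g02700*), a wall-loosening protein, was at 2318, 1621 and 1609 RPKM in the controls and 3058, 2727 and 2471 RPKM under soil N100 (LFC 0.59, SE 0.16). A xyloglucan endotransglycosylase (*VIT_00s0386g00050*) was at 2.89, 2.62 and 2.13 RPKM against 7.68, 7.96 and 11.5 RPKM, every soil N100 library being far above the controls (LFC 1.64, SE 0.48, adjusted p = 0.151, limma). Of the 14 pectin genes, 10 had an LFC above 0 and 4 below, and 10 were higher and 2 lower without overlap. Of all tested genes, 4.8% were higher and 23.9% lower without overlap, so the lower pectin count does not exceed the background as deposited. After rescaling the pectin counts stayed at 10 and 2, beside 11.7% and 10.4% of all tested genes. Pectate lyases, which cleave pectin chains, had LFCs of 0.80 to 1.64 in 4 genes, the highest being *VIT_01s0137g00240* at 1.46, 0.863 and 0.978 RPKM against 4.40, 2.99 and 6.55 RPKM (SE 0.28, adjusted p = 0.105, limma). Polygalacturonase inhibiting protein 1 (*VIT_08s0007g07690*), the most abundant pectin gene, was at 112, 84.6 and 63.3 RPKM against 165, 117 and 271 RPKM. Lower without overlap were 2 genes of the invertase and pectin methylesterase inhibitor family. *VIT_16s0022g00870* was at 40.01, 48.2 and 40.8 RPKM in the controls and 16.5, 21.6 and 11.8 RPKM under soil N100 (LFC -1.38, SE 0.23, adjusted p = 0.105, limma), and *VIT_19s0027g01810* was at 1.91, 1.98 and 1.48 RPKM against 0.675, 0.406 and 0.690 RPKM (LFC -1.07, SE 0.14, adjusted p = 0.051, limma). The latter came closest to the threshold of all genes not called. Among 5 genes of cellulose and mannan synthesis, CSLE1 (*VIT_00s0531g00060*) and CSLA09 (*VIT_08s0040g01340*) had LFCs of -0.90 and -0.72, and CSLC12 (*VIT_18s0001g08580*) one of 0.61, all without overlap.

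Genes of phloem, membranes and solute movement followed. All 3 PP2-B phloem lectins, carbohydrate-binding proteins related to those of sieve elements, were higher without overlap, and their summed level was 12.2 to 19.9 RPKM in the controls and 30.98 to 41.56 RPKM under soil N100. PP2-B13 (*VIT_14s0060g02000*) was at 9.63, 10.1 and 6.74 RPKM against 22.01, 15.6 and 25.6 RPKM (LFC 1.199, SE 0.32, adjusted p = 0.139, limma). Gamma-TIP (*VIT_08s0007g04780*), a water channel of the vacuolar membrane, was at 267, 182 and 238 RPKM against 418, 306 and 390 RPKM without overlap (LFC 0.70, SE 0.15). Of 37 transporters, 15 were higher and 9 lower without overlap, beside 4.8% and 23.9% of all tested genes. As deposited, the lower count is thus near the background. After rescaling these were 17 and 8, beside 11.7% and 10.4% of all tested genes. Of the 8 lower, 6 had been selected at v + 35 itself. An amino acid transporter (*VIT_13s0019g04660*, LFC 1.08), the oligopeptide transporter OPT3 (*VIT_00s0259g00140*, LFC 0.81) and a sulfate transporter (*VIT_11s0016g04160*, LFC 0.67) were on the higher side. The amino acid permease *VIT_03s0038g02140* (LFC -0.96) and OPT1 (*VIT_19s0015g00860*) were on the lower. OPT1, an oligopeptide transporter that belongs to the family of glutathione carriers, was at 0.827, 0.785 and 1.12 RPKM in the controls and 0.423, 0.420 and 0.197 RPKM under soil N100, lower in every library (LFC -0.74, SE 0.18, adjusted p = 0.132, limma).

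Most of the listed seed genes were lower. Of 20 tested genes of storage proteins, oleosins, LEA proteins and seed regulators, 17 had an LFC below 0, 3 had one above and 16 were without overlap on the lower side. Of all tested genes, 70.4% had an LFC below 0 and 23.9% were lower without overlap. After rescaling the seed counts stayed at 17 and 16, beside 50.5% and 10.4% of all tested genes. Of the 20 genes, 18 had been selected at v + 35 itself, and these hold all 16 without overlap on the lower side. The 2 others split into 1 above 0 and 1 below, with 0 without overlap. The seed counts are therefore not independent of the selection. The median LFC of the seed list was -0.78, and -0.68 after rescaling. Oleosin 1 (*VIT_16s0013g00880*), which coats oil bodies, was at 80.5, 94.5 and 80.1 RPKM in the controls and 47.8, 45.3 and 55.6 RPKM under soil N100. All soil N100 libraries lay well under all controls (LFC -0.77, SE 0.30, adjusted p = 0.207, limma). An LEA protein (*VIT_08s0007g04240*) was at 85.8, 110 and 93.7 RPKM against 55.0, 53.5 and 53.0 RPKM (LFC -0.83, SE 0.18, adjusted p = 0.114, limma). AGL36 (*VIT_19s0090g01040*), a MADS-box regulator active in Arabidopsis endosperm, was at 9.63, 10.8 and 8.37 RPKM against 5.50, 3.46 and 4.55 RPKM (LFC -1.03, SE 0.24).

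The genes above 0 were a nuclear factor Y subunit, NF-YB6 (*VIT_00s0956g00020*, LFC 0.37, overlapping), and a pair of genes for cruciferin, a seed storage globulin. *VIT_07s0005g03420* was at 18.4, 18.1 and 8.76 RPKM in the controls and 28.5, 33.8 and 54.5 RPKM under soil N100 (LFC 1.36, SE 0.54, adjusted p = 0.211, limma), and its neighbour *VIT_07s0005g03410* had an LFC of 1.54 (SE 0.63). Both were without overlap, and since they carry adjacent identifiers and the same description, the level of either copy is uncertain. A protein of the protease inhibitor, seed storage and lipid transfer family (*VIT_19s0177g00090*) had the highest LFC of the described genes, at 28.2, 29.7 and 14.99 RPKM against 68.1, 107 and 187 RPKM (LFC 2.23, SE 0.72, adjusted p = 0.166, limma). A serine endopeptidase inhibitor (*VIT_05s0020g05000*) was at 0.383, 0.502 and 0.406 RPKM against 5.32, 1.18 and 3.62 RPKM (LFC 1.88, SE 0.55). In these genes soil N100 was higher in every library, by unequal amounts.

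The heat shock list had 3 of 5 genes with an LFC above 0 and 2 below, and the protease list 11 of 17 above and 6 below. Among those below, a class II heat shock protein (*VIT_04s0008g01610*), a small chaperone, was at 375, 507 and 382 RPKM in the controls and 231, 230 and 218 RPKM under soil N100 (LFC -0.88, SE 0.19, adjusted p = 0.114, limma). Beta-VPE (*VIT_00s0323g00100*), a protease that in Arabidopsis processes seed storage proteins, was at 22.2, 29.5 and 23.3 RPKM against 13.6, 14.2 and 16.5 RPKM (LFC -0.74, SE 0.22). Both were without overlap, and in both control replicate 2 was the highest library. The 14 seed markers are oleosin, cruciferin and LEA genes, not a set separate from the seed list. They summed to 608 to 793 RPKM in the controls and 398 to 480 RPKM under soil N100. Of them, 12 were lower and 2 higher, and none was at 0. The 18 tested markers of ripe flesh and skin are the osmotin, chitinase and PR genes described above, not a separate set, and they summed to 5293 to 7055 RPKM against 7896 to 10620 RPKM, most of it from the chitinase *VIT_05s0094g00350*. In whole berries a smaller share of seed cells and less RNA of these genes per cell cannot be told apart, and the part of tissue makeup in the other results was not tested.

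DNA replication and cell division genes were lower in 9 of 10 cases, 7 of them without overlap, with a median LFC of -0.68. Of all tested genes, 70.4% had an LFC below 0 and 23.9% were lower without overlap. After rescaling the counts stayed at 9 and 7, beside 50.5% and 10.4% of all tested genes, and the median was -0.59. Of the 10 genes, 5 had been selected at v + 35 itself, with 4 of these lower without overlap. Of the 5 selected only at other samplings, 3 were lower without overlap. PROLIFERA (*VIT_07s0005g01430*), a subunit of the helicase that licenses replication, was at 2.54, 2.68 and 2.74 RPKM in the controls and 1.28, 1.31 and 0.854 RPKM under soil N100 (LFC -0.95, SE 0.16, adjusted p = 0.105, limma). Histone H4 (*VIT_08s0007g00040*) was at 83.4, 91.6 and 85.6 RPKM against 57.9, 52.2 and 46.5 RPKM (LFC -0.73, SE 0.17). Both genes were tight within each treatment. The exception was the tubulin TUB6 (*VIT_08s0040g00980*, LFC 0.64, overlapping), part of microtubules.

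Transcription factors had no common direction. Of 31 tested, 15 had an LFC above 0 and 16 below, and the median of -0.04 became 0.07 after rescaling. Without overlap were 6 higher and 9 lower, beside 4.8% and 23.9% of all tested genes. After rescaling these were 7 and 9, beside 11.7% and 10.4% of all tested genes. Of the 9 lower, 7 had been selected at v + 35 itself. NAC61 (*VIT_17s0000g09310*) was at 10.1, 11.5 and 8.64 RPKM against 5.50, 3.86 and 7.11 RPKM (LFC -0.85, SE 0.22), lower in every library. An AP2 domain factor (*VIT_18s0001g03240*) was at 2.62, 2.17 and 2.18 RPKM against 3.74, 7.07 and 3.22 RPKM (LFC 0.81, SE 0.24), with replicate 2 highest. Among 11 hormone genes the auxin influx carrier LAX3 (*VIT_18s0001g03540*, LFC 1.06) and gibberellin 2-oxidase GA2OX8 (*VIT_19s0177g00030*, LFC 1.12), which inactivates gibberellins, were higher without overlap. The gibberellin-regulated GASA3 (*VIT_01s0026g00620*) was lower without overlap (LFC -1.09).

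Enzymes of secondary and carbon metabolism included one very abundant gene. A cytochrome P450 (*VIT_17s0000g05110*) was at 654, 585 and 517 RPKM in the controls and 1154, 1009 and 1439 RPKM under soil N100, and every soil N100 library exceeded every control by a wide margin (LFC 1.03, SE 0.22, adjusted p = 0.114, limma). Of the other listed P450 genes that were tested, 4 had an LFC above 0 and 4 below. Of the 7 listed glutathione S-transferases, which conjugate glutathione to other molecules, 6 had an LFC above 0. All 7 had been selected for responding to nitrogen at this or another sampling. The paper detected many more transcripts of this family, among them members that it found unaffected by nitrogen. The count therefore gives no direction for the family. GSTU25 (*VIT_19s0015g02690*) was at 22.2, 28.4 and 19.5 RPKM against 42.4, 36.6 and 37.9 RPKM (LFC 0.74, SE 0.16, adjusted p = 0.114, limma), and GSTZ2 (*VIT_12s0035g02100*) was lower at 6.31, 9.41 and 7.17 RPKM against 2.97, 3.24 and 3.85 RPKM (LFC -1.07, SE 0.19, adjusted p = 0.105, limma). The most abundant of the listed members, GSTU7 (*VIT_06s0004g05680*), had overlapping libraries (LFC 0.66).

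Sugar and starch genes went both ways, with 4 of 10 higher and 4 lower without overlap, beside 4.8% and 23.9% of all tested genes. Sucrose synthase SUS4 (*VIT_11s0016g00470*), which splits sucrose for sink tissues, was at 76.6, 123 and 113 RPKM in the controls and 48.1, 70.8 and 47.9 RPKM under soil N100 (LFC -0.90, SE 0.20, adjusted p = 0.116, limma). Stachyose synthase (*VIT_07s0005g01680*, LFC -0.86) was lower without overlap, and an ADP-glucose pyrophosphorylase family gene of starch synthesis (*VIT_17s0000g07640*, LFC 0.55) was higher without overlap. Of 6 phenylpropanoid and flavonoid genes, 4 had an LFC below 0 as deposited and 3 after rescaling. The member without overlap was cinnamyl alcohol dehydrogenase CAD9 (*VIT_04s0044g00210*), an enzyme related to lignin synthesis, at 34.9, 47.4 and 36.9 RPKM against 23.02, 24.2 and 20.8 RPKM (LFC -0.79, SE 0.20).

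The effect of soil N100 at v + 35 was set against that at v + 28 by an interaction term in limma. The difference was called for 0 genes, with 137 genes past the unadjusted threshold (0.792%), and the smallest adjusted p value was 0.307 for the wound-responsive gene *VIT_12s0057g00070*. At v + 35 it was at 6.44, 12.4 and 7.18 RPKM in the controls and 3.01, 2.98 and 3.39 RPKM under soil N100 (LFC -1.28, SE 0.23). At v + 28 it was at 6.62, 7.52 and 7.31 RPKM against 13.1, 10.7 and 19.1 RPKM (LFC 0.91). The treatments did not overlap at either stage, as for 5.68% of genes on the higher side and 22% on the lower at v + 28, and the LFC at v + 35 was lower by 2.20 (SE 0.32). The wound-responsive family, 8 genes of which 7 are on one stretch of *VIT_12s0057* identifiers, had a median LFC of -0.59 at v + 35 and 0.99 at v + 28, and 7 of the 8 had been selected at samplings other than v + 35 of 2013. Without overlap on the lower side at v + 35 were 4 of the 8 as deposited and 2 after rescaling. The former was -0.23 without control replicate 2, the highest control in 7 of the 8 genes.

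Most other lists had medians of the same sign at both stages. The seed median was -0.78 at v + 35 and -0.34 at v + 28, the photosystem median 0.76 and 0.68, and the osmotin median 0.91 and 1.02. The PP2-B median was 0.99 at v + 35 and 1.39 at v + 28. None of these differences between stages was tested for a list as a whole. List members had mostly been selected at one of these stages, as 18 of the 20 tested seed genes were at v + 35. Neither the shared signs nor the sizes are therefore independent of the selection.

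Against 2014 at the same stage, the difference between years was called for 0 of 16899 genes tested in both years, with 293 past the unadjusted threshold (1.73%) and a smallest adjusted p value of 0.185 (limma fits of each year). List members were mostly selected for differing in 2013, so the size of a list median is not compared between years. The photosystem median was 0.26 in 2014 with all 24 genes above 0, the osmotin median 0.59, the seed median -0.04 and the PP2-B median 0.18. *VviNiR* (*VIT_03s0063g00370*) had an LFC of 0.36 in 2014, without overlap, and asparagine synthase (*VIT_06s0004g06830*) one of 0.16. For the latter the difference between the years was 0.94 (SE 0.31, adjusted p = 0.705, Welch-type t test on the limma fits of each year). The year cannot be told apart from the clone and the rootstock.

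**Figure D5:**
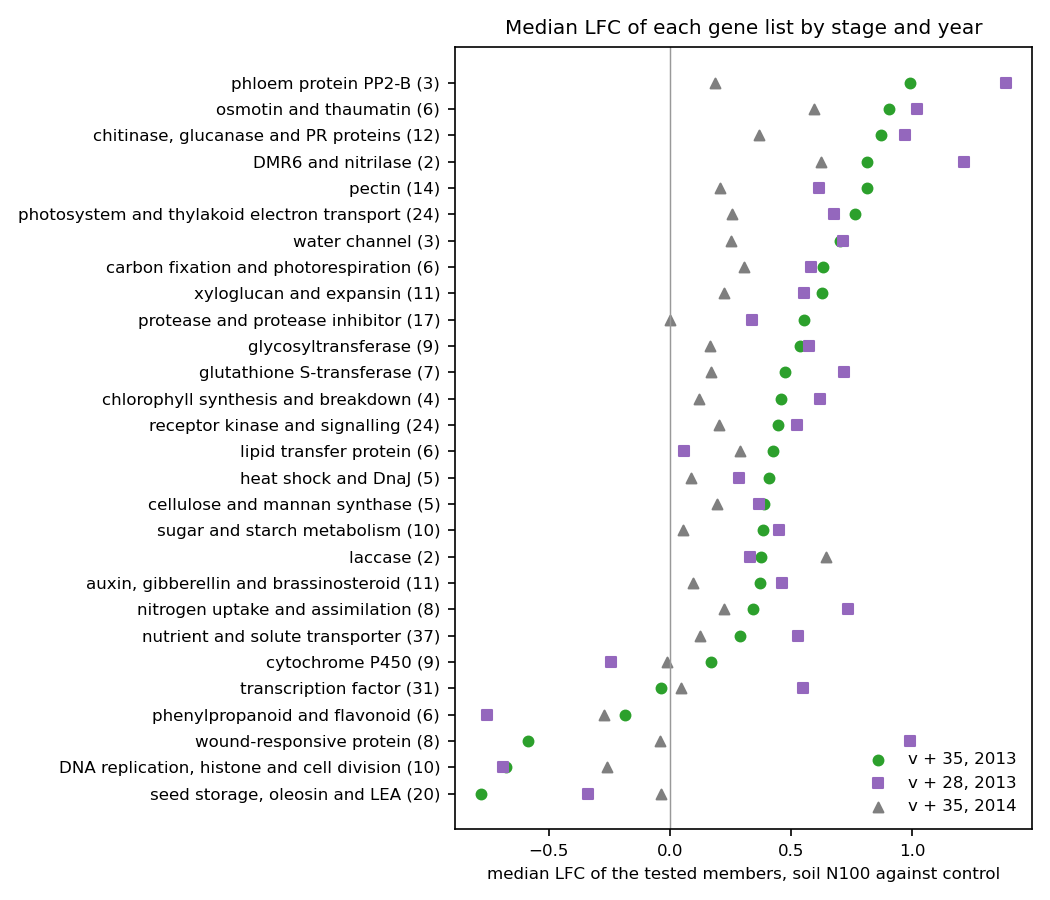
Median LFC (x axis, log2 scale) of the members of each gene list (rows) at v + 35 in 2013, v + 28 in 2013 and v + 35 in 2014. The wound-responsive list crosses 0, from -0.59 at v + 35 to 0.99 at v + 28. Of its 8 members, 7 had been selected only at v + 28 or in 2014, so the v + 28 value is not free of that selection. List members were mostly selected for differing in 2013, so sizes are not comparable with 2014 or between the stages of 2013.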

How the data were processed

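Libraries of whole berries were sequenced by the authors, aligned with TopHat2 2.0.10 and Bowtie2 2.1.0 and counted with HTSeq 0.5.4p3 from uniquely aligned reads, and the authors deposited RPKM per gene. They used DESeq2 on counts, which was not repeated here. The deposited unit is RPKM, and the read numbers recovered from it were fitted only with limma-voom. Here log2(RPKM + 0.5) was fitted for genes averaging 0.5 RPKM or more with limma 3.58.1 (R 4.3.3), 1 mean for each treatment and stage over the 12 libraries of 2013, with an intensity trend. The difference between years was the difference of the LFCs from separate limma fits of each year. It was tested by a t test with Welch-Satterthwaite degrees of freedom. Calls needed an adjusted p value of at most 0.05 and an LFC of at least 0.6 in size. Whole read numbers, recovered to within 0.01 of a read, entered limma-voom as an alternative. An exact permutation test of 3 against 3 cannot go below p = 0.1, so none was used. Alternatives were median-ratio and quantile scaling, pseudocounts of 0.1 and 1, filters of 0 and 2 RPKM, no trend, a replicate block, the 6 libraries alone and each replicate left out. The fit was tested on simulated data. Gene lists and members were chosen with earlier results of these data known, from descriptions for 648 genes in the study's tables. Genes were named where called, among the 10 highest and 10 lowest described LFCs without overlap, as the largest, most abundant or opposite members of a list, or as nitrogen and glutathione genes. The other genes named were chosen after their values were seen. Identifiers matched 0 entries of the reference gene table, so no sequence or position is given.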

Additional observations from a re-analysis of the deposited data

How the results depend on the processing

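The number of genes called at v + 35 (1) was 2 with a pseudocount of 1 RPKM and 2 without the intensity trend. It was 3 without a filter, 0 with a mean of at least 2 RPKM (where *VIT_10s0116g00560* was not tested) and 0 with the 6 libraries alone. With 1 replicate left out it was 0 to 14, 14 being without soil N100 replicate 2. At the unadjusted threshold (p value and LFC) the count was 472. Of these, higher genes (221) were 342 under median-ratio rescaling and 128 to 434 with a replicate left out, the lowest without soil N100 replicate 3. Lower genes (251) were 142 under median-ratio rescaling, 404 with a pseudocount of 0.1 RPKM, 447 in limma-voom and 156 to 362 with a replicate left out, the lowest without control replicate 2. Genes without overlap, 831 higher and 4131 lower, were 2027 and 1794 under median-ratio rescaling, 1799 and 2074 under quantile normalization, and 1028 to 2258 and 4820 to 6237 with a replicate left out, where fewer libraries overlap by construction. The difference between stages stayed at 0 calls with each replicate left out (0 to 0), against 137 at the unadjusted threshold. The difference between years was 3 without a filter, 293 at the unadjusted threshold and 0 to 1 with a replicate left out. The cause of these changes was otherwise not tested.

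The replicate block gave 22 calls (14 higher and 8 lower). Deviations of same-numbered libraries from their group means correlated at 0.309, 0.15 and -0.03 for numbers 1, 2 and 3. Libraries of unlike numbers were not compared, and the labels do not tie the numbers. Whether the numbers pair the samples was therefore not settled, and the block is given only as an alternative.

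Of 1453 values for 98 named genes under the alternatives, 1425 kept their direction and side of the threshold, 14 passed it newly, 5 no longer did and 9 changed sign. The latter were in 3 genes. *VIT_12s0057g00060* (LFC -0.02) was 0.084 under median-ratio rescaling, 0.066 under quantile normalization and 0.026 in limma-voom, and -0.247 to 0.248 with a replicate left out (above 0 without control replicate 2 or soil N100 replicate 3). *VIT_18s0122g00370* (LFC 0.10) was -0.125 to 0.318 with a replicate left out (not above 0 without control replicate 2 or soil N100 replicate 1 or 3). *VIT_16s0039g01070* (LFC 0.31) was -0.03 to 0.602 with a replicate left out (below 0 without control replicate 3). Of 420 list medians, 371 moved by less than the spread between replicates. Medians that changed sign were those of the lipid transfer list (0.43, and -0.03 without soil N100 replicate 1), the heat shock (0.41 and -0.16) and P450 lists (0.17 and -0.45) with a mean of at least 2 RPKM, the phenylpropanoid list (-0.19, and 0.02 without control replicate 2) and the transcription factor list (-0.04, and up to 0.08). With 3 libraries in a treatment, differences within the replicate spread were not detectable here.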

Other observations

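A set of described genes, chosen after their values were seen, was low in soil N100 replicates 1 and 3 and near the controls in replicate 2. EXL2 (*VIT_07s0005g00870*), an exordium-like protein, was at 32.8, 60.3 and 37.6 RPKM in the controls and 12.8, 48.8 and 4.97 RPKM under soil N100. The factor MYB24 (*VIT_14s0066g01090*) was at 103, 158 and 103 RPKM against 58.6, 118 and 39.0 RPKM. The kinesin ATK2 (*VIT_12s0028g00670*), a microtubule motor, was at 84.8, 124 and 77.1 RPKM against 41.1, 105 and 27.0 RPKM, and the glucosyltransferase UGT72E1 (*VIT_04s0023g01290*) at 42.4, 69.0 and 45.6 RPKM against 24.8, 56.6 and 17.95 RPKM. At v + 28 the libraries of these 4 genes did not overlap, with LFCs of -2.38, -1.52, -1.52 and -1.69 in the same order. Of all tested genes, 22% were lower without overlap at v + 28. Described genes had been selected on the deposited libraries, v + 28 among them, so these v + 28 values are no independent evidence. Soil N100 replicate 2 was also the library with the lowest photosystem level of its treatment.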
